A study of Mus musculus with 5 samples.

Results

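Keratins are the intermediate filament proteins of epithelial cells, and their genes are described here in sorted mouse hair follicle stem cells with and without loss of Polycomb repressive complex 1 (PRC1). Members were the protein-coding features of the deposited table whose symbol is Krt followed by digits and at most 1 further letter or digit, which leaves out the keratin-associated proteins and the pseudogene Krt74. The rule found 40 of 30840 features and used no measured value. The cells came from back skin of mice at postnatal day 70 and were sorted as EpCAM-positive, Sca1-negative, CD34-positive cells with high α6-integrin. Every mouse was Ring1a-/-, Ring1bflox/flox, so the controls lacked Ring1a too, and every mouse had 1% RU-486 put on the skin once a day for 10 days from postnatal day 50. All 3 samples of the PRC1 i2KO group carried K15-CrePR1 in addition, a Cre that RU-486 activates and that a Krt15 promoter drives, while the 2 Control samples lacked it. The groups therefore differ by the transgene as well as by the deletion, and Krt15 is itself a member.

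A keratin filament is built from pairs of 1 acidic type I and 1 basic type II protein, so the levels of both types are usually read together. Krt5 and Krt14 form the network of basal keratinocytes, Krt15 is a classic marker of the hair follicle bulge, and Krt1 and Krt10 replace the basal pair as epidermal cells differentiate. Simple epithelia use Krt8 and Krt18, the follicle's companion layer and wounded skin use Krt6a, Krt16, Krt17 and Krt75, and the inner root sheath and the hair fibre have sets of their own. The table held 20 type I and 19 type II members and Krt222, a keratin-related gene that was placed in neither type. In the GENCODE M21 annotation all type I members except Krt18 lie on chromosome 11, and all type II members and Krt18 lie on chromosome 15.

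Library totals ranged from 11626313 to 43307892 expected counts, of which mitochondrially encoded features took 21.2% and 27.4% in the controls and 35.9%, 26.6% and 38.4% in PRC1 i2KO 1, 2 and 3. Levels of a gene across libraries are given as CPM, counts brought to an equal library size by edgeR's TMM method, and comparisons between genes as the deposited TPM, in which abundance is taken per transcript length. Rnf2, the gene of Ring1b that the Cre targets, stood at 27.7 and 37.5 CPM in Control 2 and 3 against 39.9, 33.1 and 36.4 CPM in PRC1 i2KO 1, 2 and 3, with overlapping groups (log2 fold change 0.16 ± 0.25, edgeR adjusted p = 0.870). In TPM it was at 25.1 and 24.4 against 16.8, 12.9 and 11.7, lower in all 3. A value for the whole gene does not separate a deleted part from the rest, so the deletion was not checked by it, and the groups are called by their labels. Ring1, the gene of Ring1a, had 50 to 116 counts per library. The labelled cell type was checked against its markers. Cd34 stood at 477 and 326 CPM in Control 2 and 3 against 298, 292 and 164 CPM in the PRC1 i2KO libraries, Itga6 at 285 to 345 CPM in all 5, and Sox9 at 461 to 586 CPM, while the sort's negative marker Ly6a (Sca1) stayed at 0.793 to 4.93 CPM. Of the 15 bulge and sort markers 0 passed the edgeR test of PRC1 i2KO against Control in either direction. Of them 0 were higher and 5 lower at an unadjusted p under 0.05, where 7.43% and 3.51% of all genes were, and Fgf18 was called lower by DESeq2, as 0.75% of all genes were. By p the first were Fgf18 (log2 fold change -1.37, edgeR adjusted p = 0.188), Npnt (-0.65, 0.302) and Lhx2 (-0.48, 0.349). The most abundant were Postn (-0.15, 0.710), Col17a1 (-0.29, 0.635) and Lhx2. Markers of immune cells (10 of 12 in the table) summed to 5.24 and 11.1 CPM in Control 2 and 3 and 13.4 to 26.4 CPM in PRC1 i2KO. Those of melanocytes (7 of 8) summed to 205 and 160 against 82.8 to 127 CPM, and those of endothelial and mural cells (7 of 10) to 13.5 to 24.6 CPM in all 5.

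Most keratin RNA in these cells came from the basal keratins in both groups. Krt15, Krt5 and Krt14, the 3 members highest in TPM, made up between 78.5% and 85.8% of the summed keratin TPM of a library, and the 9 most abundant members (these with Krt77, Krt10, Krt24, Krt17, Krt6a and Krt80) made up at least 97.0%. Summed over all members, keratins stood at 8099 and 6359 TPM in Control 2 and 3 against 6370, 8944 and 5663 TPM in PRC1 i2KO 1, 2 and 3. The ranges overlapped, and the ratio of the means was 0.967. Of the 40 members, 30 passed the filter on low counts and were tested, 13 had a mean of at least 10 CPM, 16 had a mean below 1 CPM, and Krt31 had no count in any library, where 3 counts would have been 0.0609 to 0.238 CPM.

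**Figure D1:**
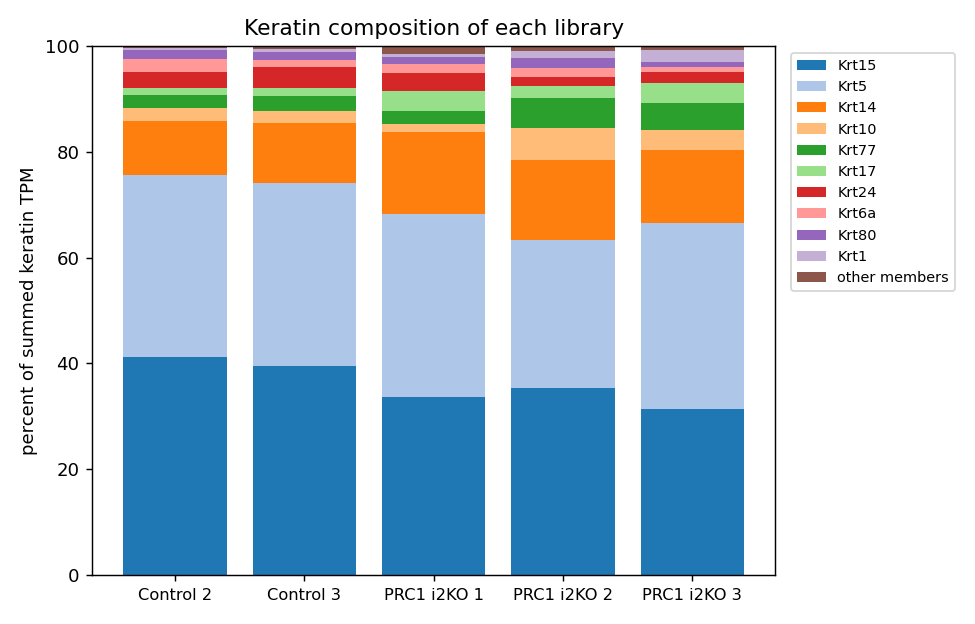
Each bar is 1 library and its segments are the percent of that library's summed keratin TPM held by each of the 10 most abundant members, with all other members together at the top. Krt15 takes 41.2% and 39.4% in the controls and 33.6%, 35.4% and 31.4% in PRC1 i2KO 1, 2 and 3, while Krt14 takes 10.2% and 11.3% in the controls and 13.8% to 15.5% in the PRC1 i2KO libraries.

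No keratin passed the comparison of PRC1 i2KO with Control (edgeR's quasi-likelihood test, Benjamini-Hochberg adjusted p under 0.05), with 0 called higher and 0 called lower among the 30 tested. Of all 22181 genes tested, 0.126% were called higher and 0.0% lower, so none of 30 is close to the background share. At an unadjusted p under 0.05 there were 5 keratins higher (Krt17, Krt14, Krt1, Krt77 and Krt8) and 1 lower (Krt19), which is 16.7% and 3.33% of those tested, against 7.43% and 3.51% of all genes. DESeq2, fitted without the filter on low counts to all 40 members, called Krt17, Krt8 and Krt1 higher and 0 lower. It called 3.43% higher and 0.75% lower of the 21725 genes to which it gave an adjusted p. By limma-voom 0 of the 30 tested keratins were called in either direction. Every PRC1 i2KO library lay above both controls for 4 of the 30 (Krt14, Krt17, Krt8 and Krt2; 13.3%) and below both for 2 (Krt19 and Krt222; 6.67%), against 14.6% and 15.3% of all genes. The median log2 fold change of the tested members was 0.81 where that of all genes was 0.01. Of the 30, 23 were positive (76.7%), against 50.4% of all genes. Krt8, Krt27 and Krt28 reached the filter's CPM in no control and so could enter only by being higher in PRC1 i2KO. Krt19 could enter only by being higher in Control. Krt2 and Krt42 reached that CPM in 1 control, too few for the filter, and so entered through their PRC1 i2KO libraries. The counts above, and those by class below, are a description only.

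**Figure D2:**
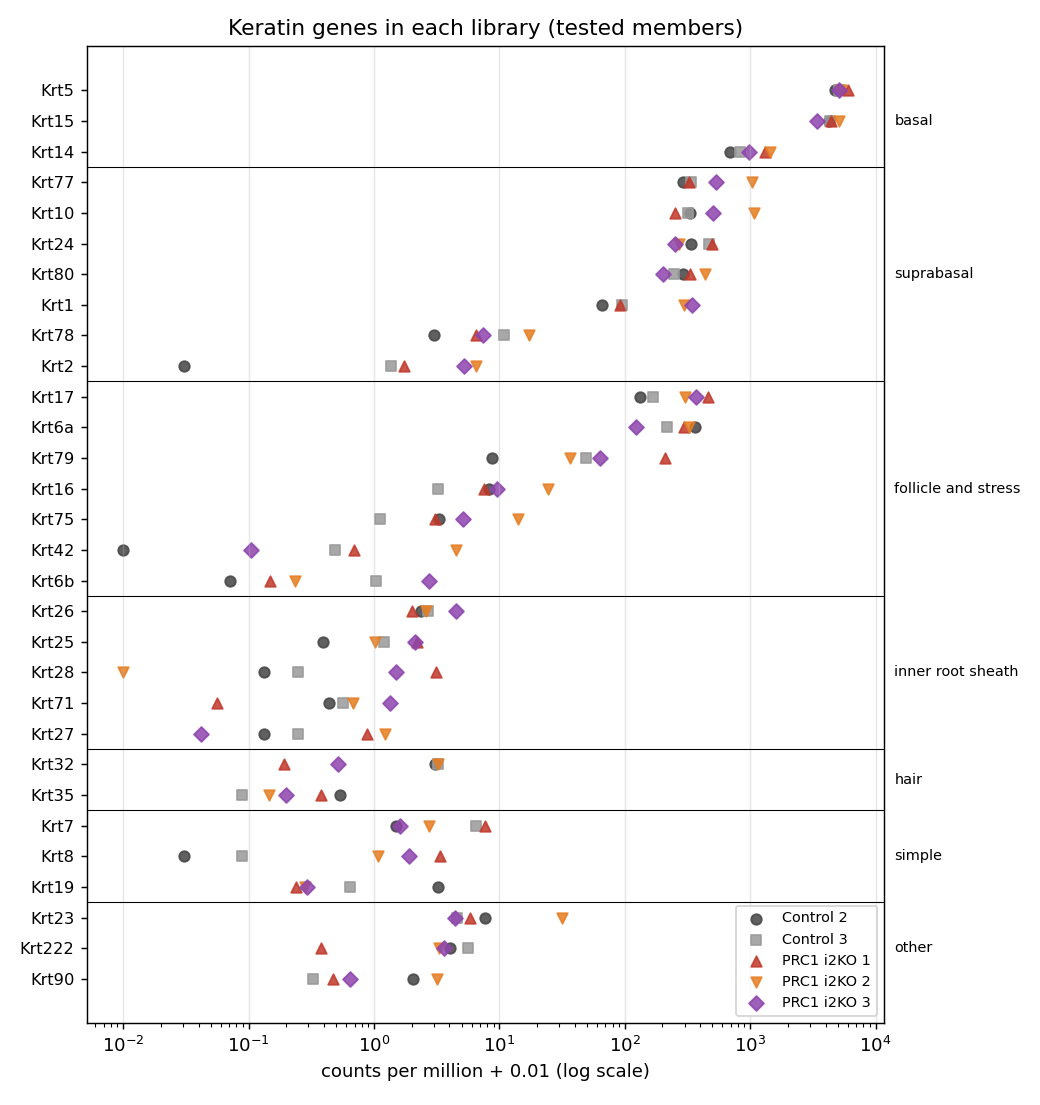
Each row is 1 tested keratin, grouped by class, and each point is 1 library in CPM plus 0.01 on a log axis, so that a count of 0 sits at 0.01. For Krt14, Krt17, Krt8 and Krt2 all PRC1 i2KO points lie to the right of both controls, while those of Krt15, between 3418 and 5076 CPM, lie on either side of them.

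The basal keratins were abundant in every library, and Krt14 alone of the 3 separated the groups. Krt5 (ENSMUSG00000061527.7), the type II partner of basal cells, stood at 4752 and 5088 CPM in Control 2 and 3 against 6041, 5308 and 5077 CPM in PRC1 i2KO 1, 2 and 3, and its ranges overlapped (log2 fold change 0.15 ± 0.13 SE, edgeR adjusted p = 0.724). Krt15 (ENSMUSG00000054146.8) was at 4270 and 4358 CPM in Control 2 and 3 against 4427, 5076 and 3418 CPM in the PRC1 i2KO libraries. Its log2 fold change was -0.0022 ± 0.17 (edgeR adjusted p = 0.999), and the PRC1 i2KO libraries, with an SD of 836 CPM, held both the highest and the lowest value.

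Krt14 (ENSMUSG00000045545.8), a type I partner of Krt5, was at 695 and 832 CPM in Control 2 and 3 against 1322, 1431 and 971 CPM in the PRC1 i2KO libraries. All 3 lay above both controls. Mean levels were 763 ± 96.8 (SD, n = 2) and 1241 ± 240 CPM (SD, n = 3), and the difference of 0.70 ± 0.19 in log2 did not pass (edgeR adjusted p = 0.240). In TPM the groups overlapped for Krt14, at 826 and 721 in the controls and 986, 1358 and 782 in PRC1 i2KO 1, 2 and 3. On the TPM scale the median of all tested genes was itself lower in PRC1 i2KO, by -0.19 in log2(TPM + 1) and -0.33 in log2(TPM + 0.1). Mitochondrially encoded features took 24.2% of the TPM in both controls and 33.3%, 27.3% and 35.4% in PRC1 i2KO 1, 2 and 3.

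Ratios between 2 keratins of the same library do not depend on that scaling. For each Krt14 transcript there were 4.04 and 3.48 Krt15 transcripts in the controls and 2.17, 2.33 and 2.28 in PRC1 i2KO 1, 2 and 3, so each PRC1 i2KO ratio was below both control ratios. Krt14 per Krt5 went with it, at 0.297 and 0.327 in Control 2 and 3 against 0.446, 0.544 and 0.392 in PRC1 i2KO. The sum of both type I basal keratins per Krt5 overlapped between the groups, at 1.50 and 1.47 in Control 2 and 3 with 1.42, 1.81 and 1.28 in PRC1 i2KO. The ratio of all type I to all type II TPM also overlapped, at 1.42 and 1.43 in Control 2 and 3 and from 1.22 (PRC1 i2KO 3) to 1.58 (PRC1 i2KO 2) in the others. With 2 samples against 3, an exact two-sided permutation test cannot go below p = 0.20. Krt15 over Krt14, Krt14 over Krt5, Krt17 over Krt6a and Krt18 over Krt8 reached that value, the last of them from few counts. Of the 10 ratios computed none could pass. Of the 50-base stretches of Krt14 transcripts 13.9% also occur in Krt16 or Krt17, which bears on how counting could divide reads, against 0.64% for Krt15. For Krt5 the shared part is 8.52%, with Krt6a first among the other genes.

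**Figure D3:**
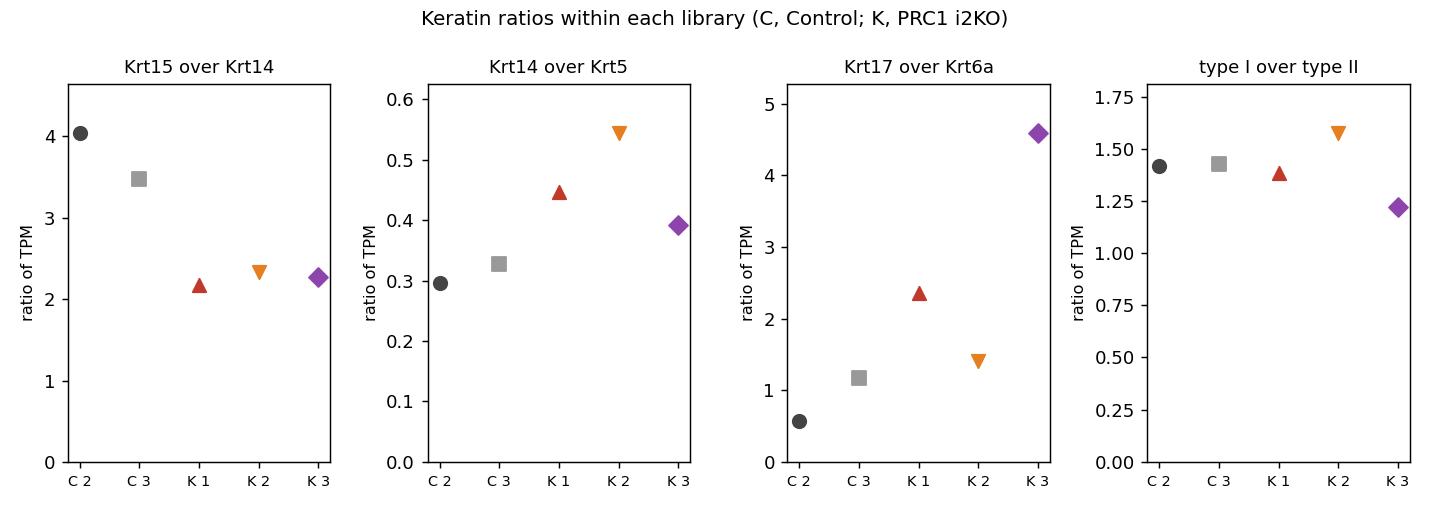
Each panel is 1 ratio of TPM values and each point 1 library (C, Control; K, PRC1 i2KO), with the vertical axis from 0. Krt15 over Krt14 lies at 3.48 or more in Control 2 and 3 against 2.33 or less in PRC1 i2KO, Krt14 over Krt5 and Krt17 over Krt6a lie higher in all PRC1 i2KO libraries, and type I over type II overlaps.

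Among the keratins of the companion layer, upper follicle and injured skin, Krt17 had the smallest p of all members. The class has 7 members, all tested, of which 6 had a positive log2 fold change (50.4% of all genes did) and 0 passed. The median of the 7 was 1.33. The summed TPM was 329 and 222 in Control 2 and 3 with 437, 403 and 293 in PRC1 i2KO. Krt17 (ENSMUSG00000035557.9), a type I keratin of the outer root sheath and of stressed keratinocytes, stood at 132 and 167 CPM in Control 2 and 3 against 458, 301 and 368 CPM in PRC1 i2KO 1, 2 and 3. Each PRC1 i2KO library lay above both controls, in CPM as in TPM (114 and 106 against 245, 208 and 212 TPM). The group means of 150 ± 24.8 (SD, n = 2) and 376 ± 78.8 CPM (SD, n = 3) differed 2.51-fold (log2 fold change 1.33 ± 0.22 SE), which did not pass over all genes (edgeR adjusted p = 0.0867). It passed without PRC1 i2KO 2 (adjusted p = 0.0483), among protein-coding genes alone (0.0440), with no filter on low counts (0.00834) and by DESeq2 (2.39e-05). It also passed in edgeR with a replicate block by title number (adjusted p = 0.0105), though the labels do not say that numbers pair samples. In that block PRC1 i2KO 1 has no control of its number and adds nothing to the contrast. With a library other than PRC1 i2KO 2 left out Krt17 did not pass, and without Control 2 its log2 fold change was 1.17. Of the 20 mitosis markers edgeR called 0 and DESeq2 called 6 higher (3.43% of all genes). At an unadjusted p under 0.05, 13 were higher and 0 lower, against 7.43% and 3.51% of all genes. These markers summed to 61.0 and 108 CPM in the controls and 457, 113 and 1026 CPM in PRC1 i2KO 1, 2 and 3. Their part in the Krt17 values was not tested.

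Krt6a (ENSMUSG00000058354.7), a type II keratin of the companion layer and the inner bulge, went with neither group. It stood at 361 and 218 CPM in Control 2 and 3 against 295, 327 and 123 CPM in PRC1 i2KO 1, 2 and 3 (log2 fold change -0.22 ± 0.38, edgeR adjusted p = 0.888), with the lowest value in PRC1 i2KO 3. Krt17 per Krt6a was therefore 0.566 and 1.17 in the controls and 2.36, 1.41 and 4.59 in PRC1 i2KO 1, 2 and 3. Krt6a shares 45.7% of its 50-base stretches with other genes, mostly Krt6b, and Krt5 is among them. Krt6b had 3 to 87 counts per library and Krt5 at least 64128, so the split of reads among these genes is uncertain.

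Krt79 and Krt16 overlapped between the groups and varied widely within them. Krt79 (ENSMUSG00000061397.8), a type II keratin of the follicle canal and infundibulum, was at 8.79 and 48.9 CPM in Control 2 and 3 against 209, 36.9 and 63.2 CPM in the PRC1 i2KO libraries. The controls differed from each other more than 5 times, PRC1 i2KO 1 stood apart from the rest, and the log2 fold change of 1.86 ± 0.84 (edgeR adjusted p = 0.468) was 0.81 without PRC1 i2KO 1 and 3.55 without Control 3. In PRC1 i2KO 1 the upper follicle marker Cst6 was likewise at its highest, 116 CPM, against 14.3 and 18.1 CPM in the controls and 47.3 and 27.8 CPM in PRC1 i2KO 2 and 3. The 19 upper follicle and sebaceous markers summed to 781 and 852 CPM in the controls and to 1171, 860 and 795 CPM in PRC1 i2KO 1, 2 and 3. By p the first were Gata6 (log2 fold change 1.89, edgeR adjusted p = 0.240), Far2 (1.84, 0.273) and Cst6 (1.98, 0.239), and the most abundant were Aqp3 (-0.28), Fst (-0.17) and Scd1 (0.61). By edgeR 0 of the 18 tested passed, and 4 were called higher by DESeq2 (3.43% of all genes). At an unadjusted p under 0.05, 6 of these markers were higher and 0 lower, against 7.43% and 3.51% of all genes. Their part in the Krt79 values was not tested.

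Krt16 (ENSMUSG00000053797.10), a type I keratin induced by injury, was at 8.20 and 3.25 CPM in Control 2 and 3 against 7.47, 24.3 and 9.58 CPM in PRC1 i2KO 1, 2 and 3 (log2 fold change 1.25 ± 0.63, edgeR adjusted p = 0.520). Without PRC1 i2KO 2, its highest library, the log2 fold change was 0.56, and 37.6% of its 50-base stretches occur in other genes. Krt75 of the companion layer had the same highest library, at 14.1 CPM in PRC1 i2KO 2 against 1.11 to 5.09 CPM in the others. Krt42, a type I keratin, was highest there as well, at 4.51 CPM against at most 0.687 CPM elsewhere, while Krt6b, which resembles Krt6a, was highest in PRC1 i2KO 3, at 2.75 CPM.

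Among the keratins of differentiating epidermis, Krt10 and Krt77 were highest in PRC1 i2KO 2 and Krt1 in PRC1 i2KO 3. Of the 7 members, all tested, 6 had a positive log2 fold change (50.4% of all genes did) and 0 passed. The median of the 7 was 0.92. The summed TPM was 801 and 693 in Control 2 and 3 with 587, 1489 and 807 in PRC1 i2KO. Krt1 (ENSMUSG00000046834.7), the type II keratin of spinous cells, stood at 66.4 and 94.4 CPM in Control 2 and 3 against 92.2, 296 and 345 CPM in PRC1 i2KO 1, 2 and 3. PRC1 i2KO 1 lay inside the control range and the other two were well above it. The log2 fold change was 1.61 ± 0.48 (edgeR adjusted p = 0.270; DESeq2 adjusted p = 0.0168), and 2.00 without PRC1 i2KO 1 (edgeR adjusted p = 0.0788). The smallest adjusted p of all alternatives, 0.000405, came from edgeR with a replicate block by title number. The labels do not say that numbers pair samples, and PRC1 i2KO 1 adds nothing to that contrast. With a block by description number the edgeR adjusted p was 0.437, and by limma on log2(TPM + 0.1) it was 0.560.

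Krt10 (ENSMUSG00000019761.10), its type I partner, was at 330 and 318 CPM in Control 2 and 3 against 250, 1079 and 505 CPM in PRC1 i2KO 1, 2 and 3. The groups overlapped, since PRC1 i2KO 1 was below both controls, and the log2 fold change of 0.92 ± 0.48 (edgeR adjusted p = 0.546) was 0.22 without PRC1 i2KO 2. Krt77 (ENSMUSG00000067594.6), a further type II keratin of differentiating epidermis, was at 290 and 337 CPM in Control 2 and 3 against 325, 1040 and 531 CPM in PRC1 i2KO. Its log2 fold change of 1.01 ± 0.41 (edgeR adjusted p = 0.414) was 0.45 without PRC1 i2KO 2. Within libraries Krt10 and Krt77 kept a TPM ratio of 0.643 to 1.06, while Krt10 over Krt1 ran from 1.76 in PRC1 i2KO 3 to 5.91 in Control 2. Krt1 and Krt10 thus did not hold a fixed proportion.

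Krt24 and Krt80 were abundant in all libraries, Krt80 highest in PRC1 i2KO 2 and Krt24, in CPM, in PRC1 i2KO 1. Krt24 (ENSMUSG00000020913.3), a type I keratin, stood at 337 and 471 CPM in Control 2 and 3 against 493, 269 and 250 CPM in PRC1 i2KO 1, 2 and 3, lowest in the libraries where Krt1 was highest (log2 fold change -0.26 ± 0.30, edgeR adjusted p = 0.812). In TPM Krt24 was at 239 and 246 in the controls against 218, 153 and 119, below both controls in each PRC1 i2KO library. The median of all genes was itself lower on that scale. Krt80 (ENSMUSG00000037185.9), a type II keratin found across differentiating epithelia, stood at 289 and 245 CPM in Control 2 and 3 against 329, 440 and 202 CPM in PRC1 i2KO (0.28 ± 0.29, adjusted p = 0.790). Of the lower members of this class, Krt78 reached 17.2 CPM in PRC1 i2KO 2 with overlapping groups. Krt2, a late epidermal keratin, was at 0.0203 and 1.35 CPM in Control 2 and 3 against 1.74, 6.56 and 5.25 CPM in PRC1 i2KO (2.86 ± 1.36, adjusted p = 0.491).

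The sum of markers of differentiating epidermis that are not keratins was highest in PRC1 i2KO 2. The 22 listed genes, all tested, summed to 1318 and 1229 CPM in the controls and to 1588, 2892 and 1512 CPM in PRC1 i2KO 1, 2 and 3. All 22 had a positive log2 fold change (50.4% of all tested genes did) and the median was 1.07. By edgeR 0 passed in either direction, and 4 were called higher by DESeq2 (3.43% of all genes). At an unadjusted p under 0.05, 6 were higher and 0 lower, against 7.43% and 3.51% of all genes. By p the first were Ly6d (1.62, edgeR adjusted p = 0.164), Elovl4 (1.41, 0.203) and Casp14 (1.62, 0.224). The most abundant were Dmkn, Sbsn and Krtdap. Dmkn was at 342 and 385 CPM in Control 2 and 3 against 485, 527 and 360 CPM in PRC1 i2KO 1, 2 and 3 (log2 fold change 0.33), with overlapping groups. Sbsn was at 253 and 202 CPM against 189, 396 and 170 CPM (0.14), so PRC1 i2KO 1 and 3 lay below both controls. Krtdap, a keratinocyte differentiation gene, stood at 119 and 136 CPM in Control 2 and 3 against 201, 563 and 273 CPM in PRC1 i2KO. The cornified envelope gene Lor stood at 145 CPM in PRC1 i2KO 2 and at no more than 29.7 CPM in the other 4 libraries. Calml3 and Lce1b were instead highest in PRC1 i2KO 1, at 255 and 16.4 CPM, and Tgm3 and Aloxe3 in PRC1 i2KO 3. In PRC1 i2KO 2 Calml3 was at 116 CPM, below both controls. Fewer or more cells of a differentiated type and less or more RNA per cell cannot be told apart in such bulk samples, and the part of these markers in the Krt1, Krt10 and Krt77 values was not tested.

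**Figure D4:**
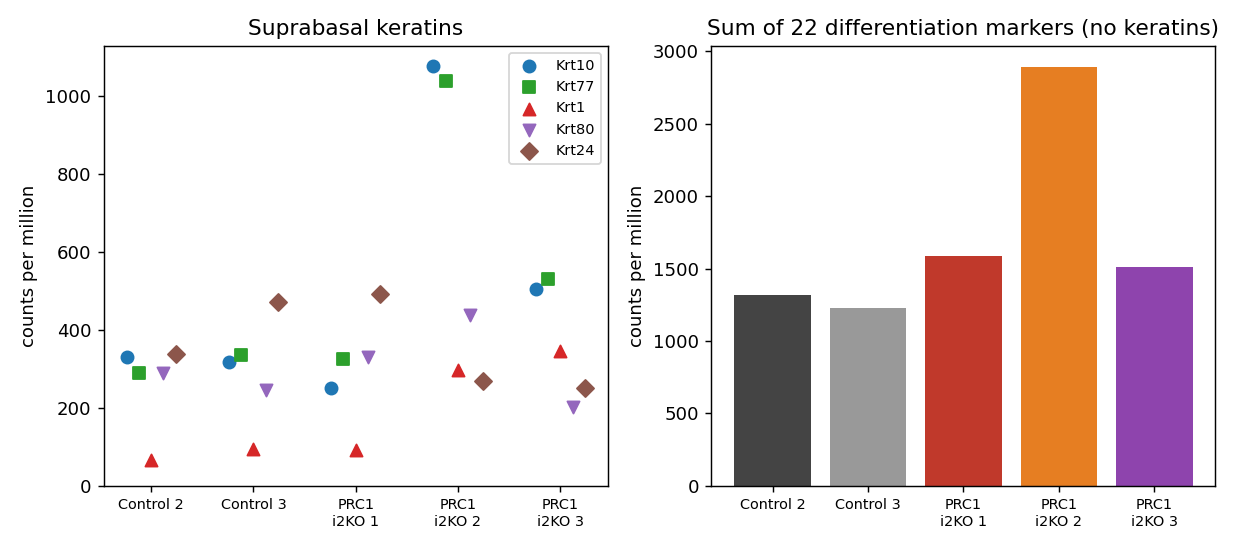
Left, CPM of 5 keratins of differentiating epidermis in each library. Right, summed CPM of 22 differentiation markers that are not keratins. Krt10 and Krt77 reach 1079 and 1040 CPM in PRC1 i2KO 2, the library in which the markers sum to 2892 CPM, against 1229 to 1588 CPM in the other 4.

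The simple epithelial keratins were scarce, and within them Krt8 and Krt19 lay on opposite sides of the controls. Krt8 (ENSMUSG00000049382.10), the type II keratin of simple epithelia and Merkel cells, had 1 count in each control and 73, 47 and 60 counts in PRC1 i2KO 1, 2 and 3. These are 0.0203 and 0.0793 CPM against 3.35, 1.06 and 1.90 CPM, and every PRC1 i2KO library lay above both controls. Summed counts per depth gave a ratio of 56.9 with an exact 95% interval of 15.5 to 474, which covers counting error only. Krt8 reached the filter's CPM in no control, so it entered the edgeR test only through the group where it is high. The fitted difference did not pass in edgeR (adjusted p = 0.177) and passed in DESeq2 (adjusted p = 0.00231). Over all alternatives the adjusted p ran from 0.00231 to 0.841. Of the 50-base stretches of Krt8 transcripts 26.9% also occur in the pseudogene Krt8-ps, which is not analysed here, and the gene overlaps Gm36026 on the opposite strand.

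Krt18 (ENSMUSG00000023043.7), with which Krt8 forms filaments, did not go with it. It had 2 counts in each control and 2, 3 and 38 counts in PRC1 i2KO 1, 2 and 3, was not tested, and stood out in PRC1 i2KO 3 alone. Krt20, a type I keratin of Merkel cells, had 3 counts in PRC1 i2KO 2 and 0 elsewhere. Of the other Merkel cell markers, 13 of 16 are in the table and 9 were tested, with 0 called by edgeR. Of the 9, 4 were positive (50.4% of all genes were), and the median log2 fold change was -0.43. At an unadjusted p under 0.05 there were 3 higher (Isl1, Sox2 and Piezo2) and 2 lower (Cck and Syp), against 7.43% and 3.51% of all genes. Isl1 and Piezo2 were called higher by DESeq2, against 3.43% of all genes. Isl1 and Sox2 had no count in a control and so passed the filter only through PRC1 i2KO, where they are high, which leaves their place in these counts a description. They summed to 39.2 and 30.1 CPM in the controls and to 41.0, 34.4 and 43.3 CPM in PRC1 i2KO 1, 2 and 3. Isl1 was at 0 in both controls, where 3 counts are 0.0609 and 0.238 CPM, but 0.871, 0.857 and 3.19 CPM in PRC1 i2KO. Sox2 was likewise at 0 in Control 2 and 3 and at 0.596, 0.293 and 0.348 CPM in PRC1 i2KO. Piezo2, the mechanosensitive channel, stood at 1.97 and 1.82 CPM in Control 2 and 3 against 12.6, 14.5 and 17.0 CPM in the 3 PRC1 i2KO samples (edgeR adjusted p = 0.0554). Cck, a neuropeptide gene and the most abundant of the list, was at 29.8 and 14.5 CPM in Control 2 and 3 against 12.4, 6.81 and 2.82 CPM in PRC1 i2KO 1, 2 and 3 (log2 fold change -1.60, edgeR adjusted p = 0.357). Syp, a synaptic vesicle gene, was at 2.74 and 3.17 CPM against 1.33, 0.226 and 0.158 CPM, while Ngfr ranged from 0.406 to 16.04 CPM with its highest value in PRC1 i2KO 3. The markers thus lay on both sides of the controls. The part of such cells in the Krt8 values was not tested.

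Krt19 (ENSMUSG00000020911.14), a type I keratin without the usual tail domain that has served as a bulge marker, was the 1 member lower at an unadjusted p under 0.05. It had 159 and 8 counts in Control 2 and 3 against 5, 12 and 9 in PRC1 i2KO 1, 2 and 3, or 3.23 and 0.635 CPM against 0.229, 0.271 and 0.285 CPM. All 3 PRC1 i2KO libraries lay below both controls, but the controls differed from each other about 5 times. The log2 fold change of -2.88 ± 1.01 (edgeR adjusted p = 0.347) was -1.26 without Control 2. Krt7, a type II keratin of ducts and glands, ranged from 1.48 to 7.65 CPM with overlapping groups (0.02 ± 0.86).

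**Figure D5:**
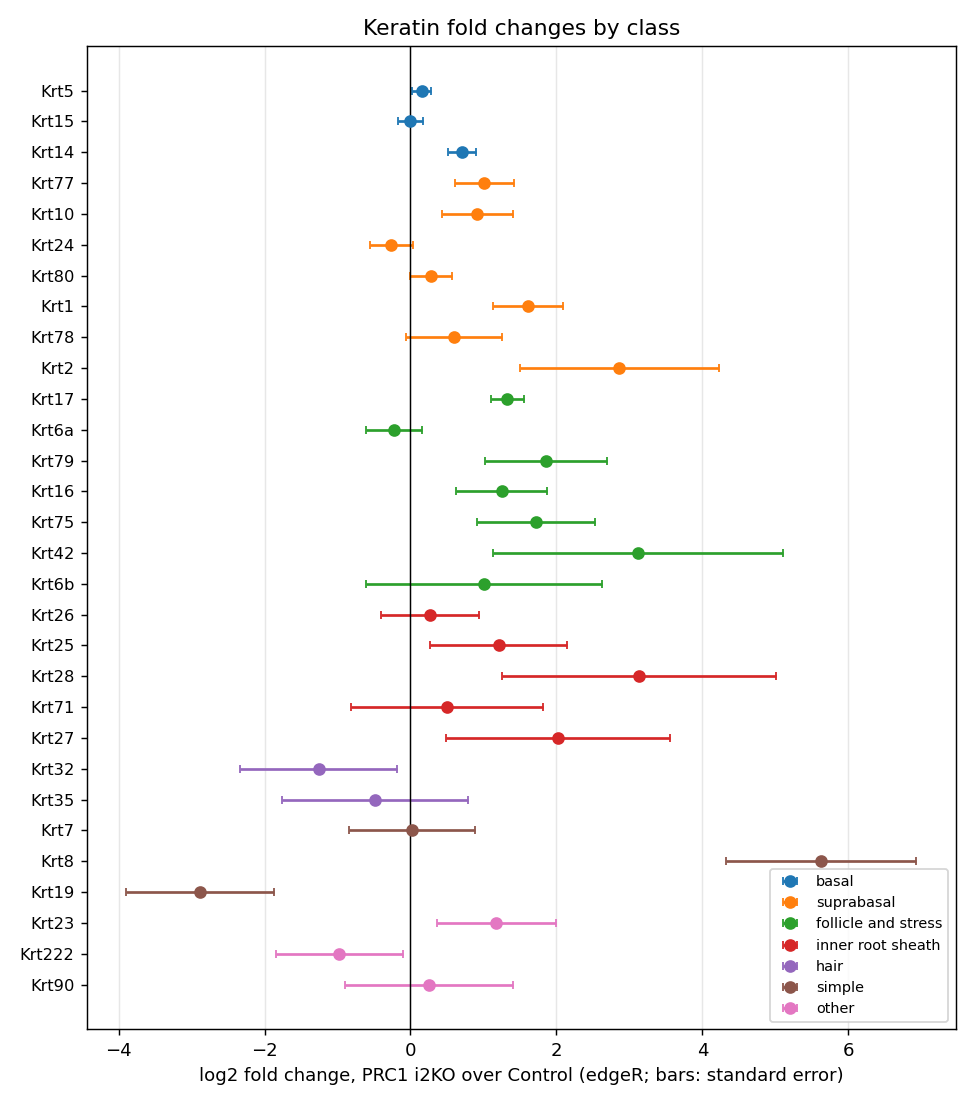
Points are edgeR log2 fold changes of PRC1 i2KO over Control for the 30 tested keratins, with bars of 1 standard error, coloured by class and in the same order as the plot of levels. The bars are narrow for the basal keratins and Krt17 and wide for members below 1 CPM, and Krt8 and Krt19 have the largest positive and negative values, 5.62 and -2.88.

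The promoter sequences of 2 pairs are shown because Krt8 and Krt18 parted while Krt10 and Krt77 had like levels in each library. They are the 250 bases before a RefSeq start in GRCm38.p6, 5′ to 3′ on the gene's strand, with each CG dinucleotide in capitals, since CpG-rich DNA is known as a binding platform of some forms of PRC1.
Krt8 (chr15:102004343-102004592, minus strand): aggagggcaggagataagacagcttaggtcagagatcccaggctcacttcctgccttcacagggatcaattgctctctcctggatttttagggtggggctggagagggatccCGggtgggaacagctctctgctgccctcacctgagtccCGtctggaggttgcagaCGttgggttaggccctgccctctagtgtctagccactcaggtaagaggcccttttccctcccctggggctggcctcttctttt
Krt18 (chr15:102027966-102028215, plus strand): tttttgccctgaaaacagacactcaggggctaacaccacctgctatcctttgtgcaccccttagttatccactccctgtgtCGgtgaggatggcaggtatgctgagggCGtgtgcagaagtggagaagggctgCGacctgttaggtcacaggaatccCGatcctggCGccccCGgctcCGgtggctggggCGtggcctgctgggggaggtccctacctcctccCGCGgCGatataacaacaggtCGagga
Krt10 (chr11:99389365-99389614, minus strand): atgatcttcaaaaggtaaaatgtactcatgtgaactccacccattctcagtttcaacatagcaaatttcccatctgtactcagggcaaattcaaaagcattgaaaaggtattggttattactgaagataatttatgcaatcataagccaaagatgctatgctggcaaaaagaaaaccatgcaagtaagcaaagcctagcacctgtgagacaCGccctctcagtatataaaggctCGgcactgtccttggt
Krt77 (chr15:101869706-101869955, minus strand): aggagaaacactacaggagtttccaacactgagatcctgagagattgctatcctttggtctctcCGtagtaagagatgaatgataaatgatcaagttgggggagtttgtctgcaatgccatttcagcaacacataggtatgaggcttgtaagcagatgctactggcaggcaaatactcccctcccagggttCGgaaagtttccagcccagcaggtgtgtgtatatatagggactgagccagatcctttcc
Krt18 held 12 CG dinucleotides in this window and Krt8 held 3, while Krt10 and Krt77 held 2 each. Among the 26 members with an entry the median was 3.5, against 6 over all 32851 promoters of the table, and 16 of the 26 held fewer than 5, as 44.4% of all promoters did. Of 3 further motifs counted on both strands, each regardless of overlap with the others, TATAAA occurred in 46.2% of these members, Krt10 among them, and in 12.4% of all promoters. GCCNNNGGC, an AP-2 motif, occurred in 4 of the 26, Krt18 among them (13.7% of all promoters), and TGANTCA, an AP-1 motif, in none (6.75% of all). Such matches describe these letters only.

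The keratins of the inner root sheath and the hair fibre that are in the table were scarce, none of them above 5 CPM in any library. Others, such as Krt34, Krt72, Krt81 and Krt85, are not in the table under these symbols, so their levels are not known here. Of the 6 inner root sheath members 5 were tested, with log2 fold changes between 0.26 and 3.13 and 0 called, and the summed TPM was 1.54 and 1.80 in the controls and 3.39, 2.41 and 3.97 in PRC1 i2KO 1, 2 and 3. Krt26, the highest of them, ranged from 2.02 to 4.49 CPM with overlapping groups, and Krt25 from 0.386 to 2.20 CPM. Krt71 reached 1.33 CPM and Krt27 reached 1.22 CPM, each in 1 PRC1 i2KO library, and both overlapped the controls. Of the 7 hair members 2 were tested. Krt32, a type I keratin of the hair cuticle, was at 3.05 and 3.25 CPM in Control 2 and 3 against 0.183, 3.20 and 0.506 CPM in PRC1 i2KO 1, 2 and 3, so PRC1 i2KO 2 lay with the controls and the other two lower. The log2 fold change was -1.26 ± 1.08 (edgeR adjusted p = 0.736). Krt35 stayed between 0.0793 and 0.528 CPM, Krt87 had 5 counts in Control 2 and 10 in PRC1 i2KO 2, and Krt83 had 2 counts in Control 2. Neither Krt4 nor Krt12, keratins of mucosa and cornea, had over 5 counts in any library.

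Of 26 other inner root sheath and hair shaft markers, 14 are in the table and 12 were tested. Both edgeR and DESeq2 called 0. At an unadjusted p under 0.05, 1 was higher and 0 lower, against 7.43% and 3.51% of all genes. The list had a median log2 fold change of 0.23. It was led in abundance by Gata3, at 82.1 and 122 CPM in Control 2 and 3 against 133, 161 and 149 CPM in the 3 PRC1 i2KO samples (edgeR adjusted p = 0.422), followed by Hoxc13 (log2 fold change 0.20) and Lap3 (0.26). Next to Gata3 in p were Mt4 (2.05, adjusted p = 0.459) and Padi3 (-2.38, 0.570). Tchh, of the inner root sheath and medulla, ranged from 2.46 to 6.48 CPM. Among members of no named class, Krt23 (ENSMUSG00000006777.7), a type I keratin, was at 7.74 and 4.60 CPM in Control 2 and 3 against 5.87, 31.6 and 4.46 CPM in PRC1 i2KO 1, 2 and 3. Its log2 fold change of 1.17 ± 0.82 (adjusted p = 0.662) was -0.27 without PRC1 i2KO 2. Krt222 was at 4.02 and 5.63 CPM in Control 2 and 3 against 0.367, 3.29 and 3.64 CPM in PRC1 i2KO (-0.98 ± 0.87, adjusted p = 0.748), below both controls throughout. Krt90 ranged from 0.317 to 3.18 CPM with overlapping groups.

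The proteins to which keratin filaments attach showed 0 calls among 25 tested genes of desmosomes and hemidesmosomes, with a median log2 fold change of 0.24. At an unadjusted p under 0.05, 3 were higher and 0 lower, against 7.43% and 3.51% of all genes. Pkp1 alone was called higher by DESeq2, against 3.43% of all genes. The 3 were the desmosomal plaque gene Pkp1, at 122 and 199 CPM in the controls and 307, 308 and 362 CPM in the 3 PRC1 i2KO samples (1.02 ± 0.23, edgeR adjusted p = 0.172), the desmosomal cadherin Dsg1b (0.62, 0.354) and the tetraspanin Cd151 (0.51, 0.409). The 10 tested genes of other intermediate filaments also had 0 calls and a median of 0.52. At an unadjusted p under 0.05, 2 were higher and 0 lower (7.43% and 3.51% of all genes). Both of these, Nes and Vim, were called higher by DESeq2 (3.43% of all genes). Nes, the filament of neural progenitors, was at 0.284 and 0.635 CPM in Control 2 and 3 against 4.22, 3.97 and 8.76 CPM in PRC1 i2KO (3.69 ± 0.81, adjusted p = 0.165). Vim, the mesenchymal filament, was at 0.0203 and 0.555 CPM against 5.68, 1.74 and 6.42 CPM (4.27 ± 1.33, 0.287). The nuclear lamin gene Lmnb2 followed in p (0.81, adjusted p = 0.512). Nes and Vim lay above the controls in every PRC1 i2KO library, and so did the fibroblast receptor gene Pdgfra (log2 fold change 3.11 ± 0.45, adjusted p = 0.0502). Fibroblast markers summed to 82.6 and 80.1 CPM in the controls and 163, 135 and 138 CPM in PRC1 i2KO (10 of 12 in the table). Of the 6 tested edgeR called 0, and 2 were called higher by DESeq2 (3.43% of all genes). At an unadjusted p under 0.05, 3 were higher and 0 lower (7.43% and 3.51% of all genes). After Pdgfra in p came Col1a1 (log2 fold change 2.02) and Thy1 (1.93), and the most abundant were Fbln1 (0.53), Col1a2 (0.16) and Pdgfra. Their part in the Vim and Nes values was not tested.

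Transcription factors known to act on keratin genes had 0 calls among 16 tested, with a median log2 fold change of 0.37. At an unadjusted p under 0.05, 5 were higher and 1 lower, against 7.43% and 3.51% of all genes. Klf5, Tfap2c and Lef1 were called higher by DESeq2, against 3.43% of all genes. Trp63, the regulator of the basal keratins, stood at 1026 to 1378 CPM in all libraries with a log2 fold change of 0.03 ± 0.16. Klf5, a factor of proliferating keratinocytes, was at 48.6 and 42.0 CPM in Control 2 and 3 against 91.7, 109 and 96.1 CPM in the 3 PRC1 i2KO samples (1.12 ± 0.20, edgeR adjusted p = 0.109). Tfap2c of the AP-2 family (1.40 ± 0.31, adjusted p = 0.165) and Lef1 (1.48 ± 0.34, 0.177) followed. Klf4, a factor of epidermal differentiation, was at 948 and 845 CPM in Control 2 and 3 against 702, 662 and 633 CPM in PRC1 i2KO (-0.43 ± 0.14, adjusted p = 0.321).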

How the data were processed

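Polyadenylated RNA of 5 sorted samples (2 Control, 3 PRC1 i2KO) was analysed. The authors deposited expected counts, estimated per gene and 60.4% of them not whole, and TPM, which divides out transcript length. Tools named, without roles, in the submitters' processing notes are RSEM 1.3.3, STAR 2.7.9a and DESeq2 1.38.2, with build mm39. Whether counting used strand was not given in the sources, and Krt5, Krt6a, Krt6b, Krt7, Krt8, Krt10, Krt12, Krt32, Krt75, Krt80 and Krt90 overlap a gene on the opposite strand. Columns were matched to samples by the numbers in the sample titles. Nothing in the labels ties each sample to its own animal, and p-values measure no more than the spread between these samples, possibly a technical one.

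Counts were rounded and all genes fitted in edgeR 4.0.16 (R 4.3.3; filterByExpr, TMM, quasi-likelihood, group only), with Benjamini-Hochberg adjustment over 22181 genes. The script was run first on simulated counts. Alternatives used DESeq2 1.42.0 and limma 3.58.1. The members and lists were chosen with earlier results of these data known. Members with a mean of at least 10 CPM or an unadjusted p under 0.05 are given in full, of the rest the 2 largest by mean CPM in each class, and of other lists the 3 smallest p and, for cell markers, the 3 most abundant genes (immune, melanocyte, endothelial and mitosis lists by their sums only); others named (sort and lineage markers, other low keratins) were chosen after their values were seen. Shared 50-base stretches and chromosomes come from GENCODE M21 (GRCm38), promoters from RefSeq.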

Additional observations from a re-analysis of the deposited data

How the results depend on the processing

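The count of 0 keratins called lower held under all 15 alternatives. The count of 0 called higher held under 10 of them, while DESeq2 gave 3 (Krt8, Krt1 and Krt17), no filter on low counts 1, protein-coding genes alone 1 (Krt17 in both), and leaving out libraries in turn 0 to 1. The summed keratin TPM had a log2 ratio of -0.048, from -0.26 to 0.14 as each library was left out, and 0.23 as CPM.

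Krt5, Krt80, Krt15, Krt6a, Krt24 and Krt23 turned direction under some alternatives, Krt23 from 1.17. On log2(TPM + 1) and log2(TPM + 0.1) Krt5 was at -0.16 and Krt80 at -0.13, the median of all genes there being -0.19 and -0.33. Krt15 was at 0.0067 with DESeq2-style size factors, 0.012 by DESeq2, 0.012 with no filter, 0.0098 without mitochondrially encoded features, and, as each library was left out, -0.14 (without PRC1 i2KO 2) to 0.14 (without PRC1 i2KO 3), above 0 also without Control 3. In the same way Krt6a ran from -0.53 to 0.19, Krt23 from -0.27 (without PRC1 i2KO 2) to 1.61, Krt24 from -0.64 to 0.0060 (without Control 3) and Krt80 from -0.012 (without PRC1 i2KO 2) to 0.52. None of these passed, and the cause was not tested.

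The labels do not say that numbers pair samples, and deviations of same-numbered samples correlated over genes at 0.065 and 0.041 by title number and -0.024 and -0.065 by description number. A replicate block by title number called 4 keratins higher (Krt77, Krt10, Krt1 and Krt17). No control shares the number of PRC1 i2KO 1, so that library adds nothing to the blocked contrast. For Krt1 the blocked log2 fold change was 2.01, and it was 2.00 with PRC1 i2KO 1 left out. A replicate block by description number called 0, with Krt15 at 0.14 and Krt6a at 0.15. In that block PRC1 i2KO 3 is likewise without a control and adds nothing to the contrast. With 1 count at 0.0203 to 0.0793 CPM, members below 1 CPM rest on few counts.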

Other observations

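Several hair and inner root sheath keratins had counts in 1 library alone, and they were picked out after their values were seen. Krt33a had 28 counts in PRC1 i2KO 1, Krt73 had 45 counts in PRC1 i2KO 3 and Krt84 had 16 counts in PRC1 i2KO 2, each with 0 in the other 4 libraries. Krt28 had 68 and 47 counts in PRC1 i2KO 1 and 3, 6 and 3 in the controls and 0 in PRC1 i2KO 2. Krt83 had 2 counts in Control 2 and none elsewhere. The libraries with these counts differed from gene to gene, and none of the single-library genes was tested.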
